A study of Mus musculus with 10 samples.

Results

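The genes described here are 10 transcripts that read out the RAS-ERK (MAPK) pathway: the phosphatase genes Dusp4, Dusp5 and Dusp6, the Sprouty genes Spry1, Spry2 and Spry4, the Spred genes Spred1 and Spred2, and the ETS factor genes Etv4 and Etv5. They were found by symbol in the count table, in which all 10 had a row among 39017 genes, and all 10 passed the filter on low counts that left 16216 genes for testing. Expression was measured by mRNA sequencing in 10 libraries of lung tumors from male C57BL/6 mice, 5 of them KP and 5 KPG1. KP mice develop lung adenocarcinoma after Cre delivery, and KPG1 mice are in addition homozygous for floxed alleles of Slc2a1, which encodes Glut1, a glucose transporter. In both groups an adenovirus with Cre under the SPC promoter (Ad5SPC-Cre) was given through the trachea, so that tumors started in cells that use this surfactant protein C promoter. The tumors were taken after 18 weeks and 6 days, dissociated, and depleted of cells carrying the leukocyte marker CD45 with magnetic beads. Whether a library held 1 tumor or several is not given in the sources used here. Where values are compared below, a tumor stands for 1 library. Each control carries the genotype label heterozygous fl/wt for the transporter, whereas the design text calls the controls wild type, so KP stands here for the group labelled Control. The comparison asks which transcripts differ when Slc2a1 is targeted in the tumor.

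When growth factor receptors activate RAS, the kinases RAF, MEK and ERK are switched on in turn, and ERK induces the genes of its own inhibitors. Dusp6 removes phosphate from cytoplasmic ERK and Dusp5 from nuclear ERK, while Dusp4 is a nuclear phosphatase of several MAP kinases. Sprouty and Spred proteins restrain the pathway upstream of ERK, the Spred proteins by bringing the RAS inhibitor neurofibromin to the membrane. Etv4 and Etv5 are ERK-dependent transcription factors of the PEA3 group, and Etv5 is also known for a part in alveolar type 2 cell identity, the lung cell that makes surfactant.

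Promoter sequences from RefSeq (GRCm38.p6) were matched to 7 of the 10 genes, with 8 start sites since Etv5 has 2, and are shown for the phosphatases Dusp5 and Dusp6 because these differed most from each other in how they varied between tumors. Both stretches are on the plus strand, read 5′ to 3′, and end at the last base before the annotated gene. The first is chr19:53528895-53529108, of 214 bases with 65.0% G and C, and the second is chr10:99262981-99263230, of 250 bases with 56.4% G and C. Capitals mark the CArG box, the consensus to which serum response factor binds.
Dusp5: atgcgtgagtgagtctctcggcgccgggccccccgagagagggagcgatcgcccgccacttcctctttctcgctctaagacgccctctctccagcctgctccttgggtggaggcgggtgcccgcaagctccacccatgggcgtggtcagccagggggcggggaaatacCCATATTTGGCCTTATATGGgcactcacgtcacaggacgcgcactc
Dusp6: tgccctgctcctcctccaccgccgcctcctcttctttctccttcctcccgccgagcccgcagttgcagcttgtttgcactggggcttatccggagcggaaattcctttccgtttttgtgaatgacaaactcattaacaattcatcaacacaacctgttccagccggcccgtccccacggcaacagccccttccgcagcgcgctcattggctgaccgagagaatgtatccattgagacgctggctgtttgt

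In the 250 bases before each of the 8 starts, both strands were searched for the Capicua octamers TGAATGAA and TGAATGGA, the ETS site CCGGAAGT, the AP-1 site TGACTCA and the cAMP-response element TGACGTCA, and none of the starts held any of them. Among 32851 promoters of the same length, 1.08%, 1.01%, 2.88%, 4.46% and 1.55% held these letters, in that order. The CArG box was added after the Dusp5 sequence had been seen. It was found 2 times before Dusp5, with first bases 82 and 72 bases before the RefSeq start and no gap between the boxes, and before no other member. Of all promoters, 1.47% held at least 1 such box and 0.0183% (6 promoters) at least 2. These letter matches are descriptions of the sequence and not measured sites.

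Libraries held 32427029 to 49534284 counts, and KP 1 and KP 5 lay at the ends of the first principal component (28.0% of variance, -74.0 and 71.8). Slc2a1 was lower in all 5 KPG1 libraries (40.8 to 66.8 CPM, counts scaled to a common library size) than in any KP library (71.7 to 126.9 CPM), with a fitted log2 fold change of -1.01 ± 0.20 (SE, n = 5 per group) and a limma adjusted p of 0.0675. Summed alveolar type 2 markers ran from 18945 to 63624 CPM in KP and from 48980 to 89011 in KPG1, lowest in KP 1. The 12 proliferation genes summed to 160.4 CPM in KP 5, 419 to 537 in the other KP libraries and 413 to 674 in KPG1. The 6 epithelial markers summed to 4309 to 6225 CPM in KP and 3183 to 3929 in KPG1, while 9 leukocyte markers reached only 30.8 to 74.5 CPM, with Ptprc, the gene of CD45, at 2.40 to 3.46 log2 CPM. In tumor RNA of this kind, fewer cells of a type and less RNA per cell cannot be told apart. The labels number the samples, and KP 5 (number 6) is the only control numbered below 11, the KPG1 libraries being 1, 4, 5, 9 and 10.

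Dusp5 and Dusp4 were the members with the largest differences, and in both the group means were separated by tumors that did not all behave alike. None of the 10 genes passed an adjusted p of 0.05 between KPG1 and KP in limma-voom, with 0.173% of all genes tested passing (28 genes, 10 higher and 18 lower in KPG1). In DESeq2, which called many more genes, Dusp4 and Dusp5 both passed, beside 548 of the 16216 genes tested (125 higher and 423 lower). At an unadjusted p under 0.05, 2 of the 10 members (Dusp4 and Dusp5, both lower) stood beside 11.6% of all genes, and no member was free of overlap between the groups, beside 2.81% of all genes. The median fitted log2 fold change was 0.01 over the members and 0.02 over all genes tested, with 5 members above 0 and 5 below, beside 47.3% of all genes below 0. The plot of all libraries shows these values side by side.

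**Figure D1:**
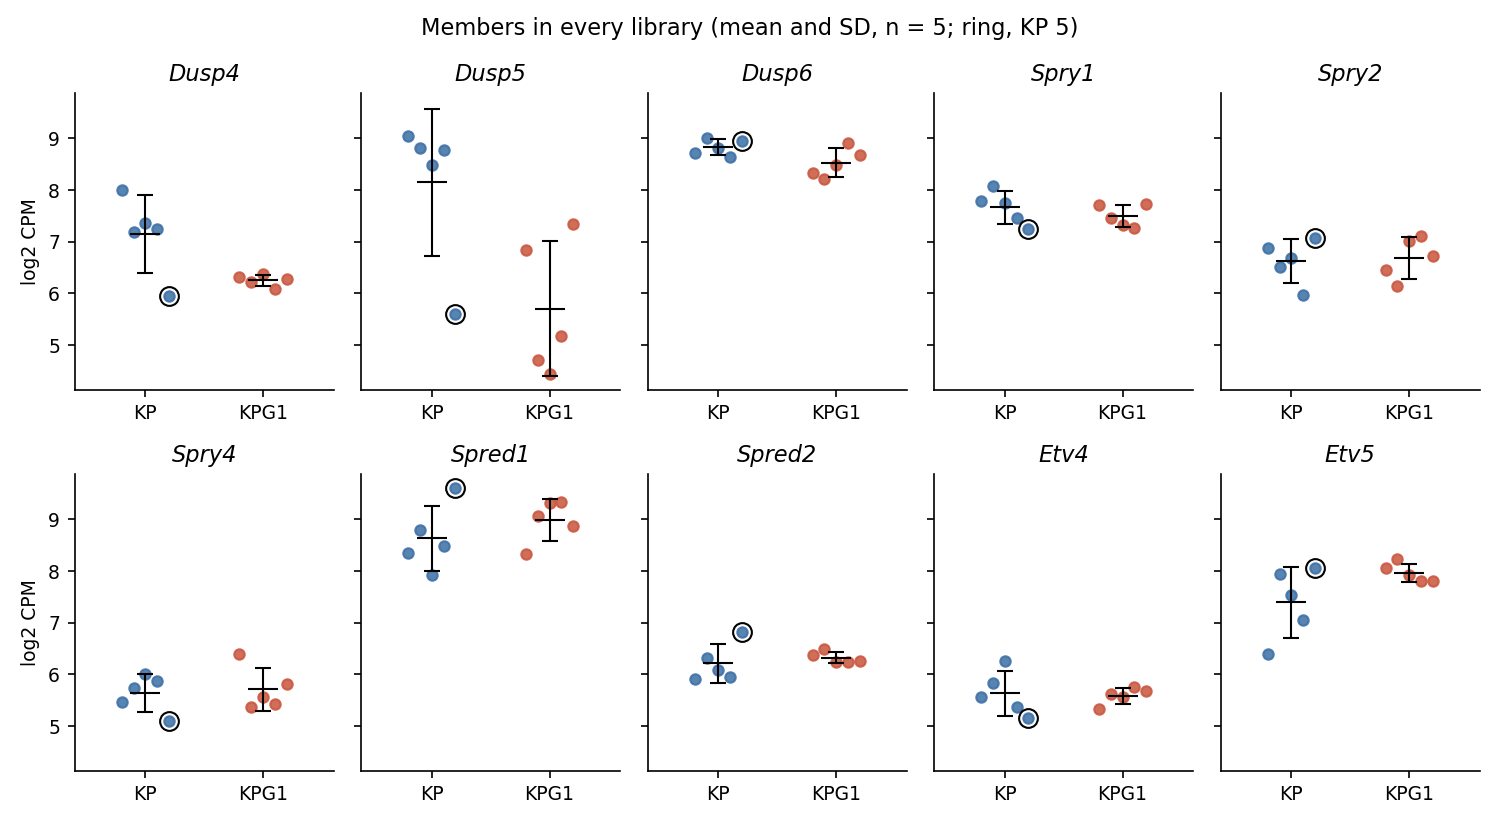
Log2 CPM (vertical axis) of the 10 genes in the 5 KP libraries (blue) and the 5 KPG1 libraries (red), with the mean and SD of each group as black bars and KP 5 ringed. For Dusp5 the 4 other KP libraries sit between 8.49 and 9.04 and KP 5 at 5.61, within the KPG1 range of 4.45 to 7.35.

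Dusp5 (ENSMUSG00000034765, mm10 chromosome 19, 53529109 to 53542431, plus strand), the nuclear ERK phosphatase, measured 9.04, 8.82, 8.49, 8.78 and 5.61 log2 CPM in KP 1 to 5. In KPG1 1 to 5 it measured 6.84, 4.71, 4.45, 5.18 and 7.35 log2 CPM. Thus 4 KP tumors were above every KPG1 tumor, KP 5 was below 2 of them, and the KPG1 tumors themselves split into 3 low and 2 intermediate values. The fitted log2 fold change was -2.44 ± 0.73 (SE; 95% interval -4.05 to -0.84), or 0.184 times the KP level, with an unadjusted p of 0.00635 and a limma adjusted p of 0.239. Without KP 5 it was -3.09 with an adjusted p of 0.0333, beside 1.78% of genes called in that fit. With the sample number as a covariate it was -0.53 with an adjusted p of 0.802, and over all 21 alternatives the adjusted p ran from 0.0317 to 0.802. The mean within-group SD of Dusp5 was 1.37, larger than that of 97.2% of genes tested, against a median of 0.35. AC137853.2 shares exonic bases with Dusp5 on the opposite strand and was not analysed here, and since the strand setting of the counting is not given in the sources used here, reads of such a pair may not have been told apart.

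Dusp4 (ENSMUSG00000031530, chromosome 8, 34807297 to 34819894, plus strand) shared the outline of Dusp5 within KP at a smaller scale. Its KPG1 levels lay close together, without the split seen in Dusp5. Its levels were 8.01, 7.19, 7.37, 7.25 and 5.95 log2 CPM in KP 1 to 5 and 6.32, 6.22, 6.37, 6.09 and 6.28 log2 CPM in KPG1 1 to 5. KP 5 was the lowest of all 10 tumors, while the other 4 KP tumors were above all KPG1 tumors. The spread was 0.75 (SD) in KP and 0.11 in KPG1. The fitted log2 fold change was -0.90 ± 0.29 (SE; 95% interval -1.54 to -0.25), or 0.537 times the KP level, with an unadjusted p of 0.0108 and a limma adjusted p of 0.275. Without KP 5 the log2 fold change was -1.21 with an adjusted p of 0.0131, and with the sample number as a covariate it was -0.48 with an adjusted p of 0.702 (0.0131 to 0.702 over all 21 alternatives). KP 5, low in both genes, was also the library with the lowest summed proliferation genes. Its summed endothelial (277 CPM), fibroblast (94.0 CPM) and club cell (88.4 CPM) markers were likewise the lowest of all libraries. Within KPG1 the endothelial sum was highest in KPG1 1 (1312 CPM) and KPG1 5 (705 CPM), the libraries highest for Dusp5. In KP 1 to 4 it was highest in KP 3 (960 CPM), where Dusp5 was lowest of these libraries. The part of these marker levels in the result was not tested.

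Dusp6 (ENSMUSG00000019960, chromosome 10, 99263231 to 99267489, plus strand), the cytoplasmic ERK phosphatase, did not share this pattern. It measured 8.72, 9.01, 8.82, 8.64 and 8.96 log2 CPM in KP 1 to 5 and 8.33, 8.22, 8.49, 8.92 and 8.68 log2 CPM in KPG1 1 to 5. Here KP 5 was among the highest tumors, the groups overlapped, and the KPG1 mean was the lower one. The log2 fold change was -0.30 ± 0.15 (SE; 95% interval -0.63 to 0.03) with a limma adjusted p of 0.469, so that an increase above 0.03 and a decrease beyond 0.63 lay outside the interval. Its within-group SD of 0.225 was larger than that of only 22.0% of genes tested.

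Since the samples carry numbers in the labels that nearly divide the groups, each member was also set against that number, a choice made after the data had been seen. Ordered by sample number from 1 to 16, Dusp5 read 4.71, 4.45, 5.18, 5.61, 7.35, 6.84, 9.04, 8.82, 8.49 and 8.78 log2 CPM, so that KP 5 lay between its KPG1 neighbours in number. Pearson's r over the 10 libraries was 0.917 (permutation p 0.00035, adjusted over 10 members 0.0035) and Spearman's rho was 0.867 (permutation p 0.00212, adjusted 0.0212). Without KP 4 and KPG1 2, the libraries farthest from the median number, r was 0.915. An absolute r at least as large was reached by 27 genes, or 0.167% of those tested. For Dusp4, r was 0.721 (permutation p 0.0222, adjusted 0.0741), a size reached by 7.02% of genes, and for Spred1 r was -0.773 (permutation p 0.0102, adjusted 0.0511). The other 7 members had an adjusted permutation p of Pearson's r between 0.122 and 0.473. What the number stands for is not given in the sources used here. Number and group are partly confounded, since apart from KP 5 every KP number is above every KPG1 number. Within KPG1, Dusp5 was at 4.45 to 5.18 log2 CPM at numbers 1, 4 and 5 and at 7.35 and 6.84 at 9 and 10. Within KP it was at 5.61 log2 CPM at number 6, and at 9.04, 8.82, 8.49 and 8.78 at 11, 12, 15 and 16, with no rise over these last numbers.

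**Figure D2:**
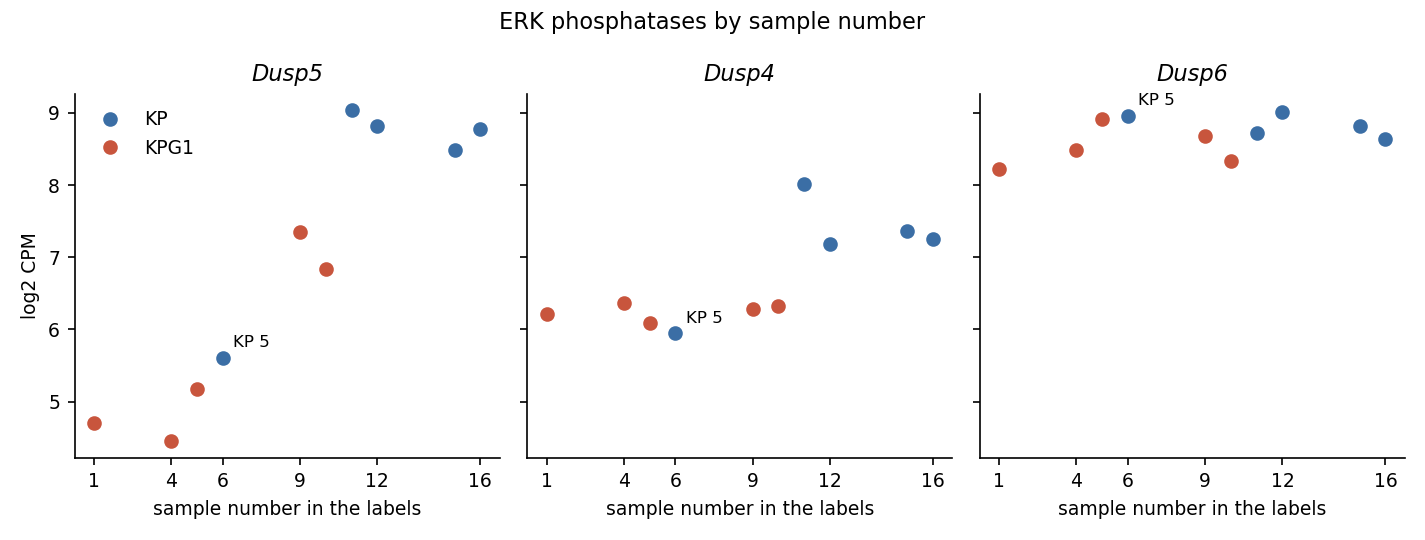
Log2 CPM (vertical axis) of the 3 ERK phosphatase genes against the sample number given in the labels (horizontal axis), 1 point per library, KP in blue and KPG1 in red. Dusp5 goes from 4.71 at number 1 to 8.78 at number 16 and KP 5 (number 6) lies beside the KPG1 points, whereas Dusp6 stays between 8.22 and 9.01.

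None of the Sprouty genes, whose products are receptor-proximal brakes, passed the test between the groups. Spry1 (chromosome 3, 37639947 to 37644598, plus strand) ran from 7.25 to 8.08 log2 CPM in KP and from 7.26 to 7.73 in KPG1, with a log2 fold change of -0.17 ± 0.17 (SE; 95% interval -0.54 to 0.20). Spry2 (chromosome 14, 105891947 to 105896819, minus strand) ran from 5.98 to 7.08 log2 CPM in KP and from 6.14 to 7.11 in KPG1, and its log2 fold change was 0.06 ± 0.23 (SE; 95% interval -0.45 to 0.58). Spry4, on chromosome 18, ran from 5.09 to 6.01 log2 CPM in KP and from 5.37 to 6.40 in KPG1, with a log2 fold change of 0.08 ± 0.23 (SE; 95% interval -0.42 to 0.58). The groups overlapped in all 3 genes, with KPG1 1 above every KP tumor for Spry4, and their limma adjusted p-values were 0.737, 0.940 and 0.918. With the sample number as a covariate the log2 fold change of Spry4 was 0.66 with an adjusted p of 0.368 (0.368 to 0.973 over all 21 alternatives), above the interval of the fit without it. The sign of the fitted value turned in Spry1, Spry2 and Spry4 under at least 1 of the alternatives, so that no direction is given for them. Spry1 shares exonic bases with Gm42922 on the opposite strand, which was not analysed here.

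Spred1 and Spred2, which inhibit RAS signalling through neurofibromin, had KPG1 means above the KP means without passing the test. Spred1 (chromosome 2, 117121374 to 117182279, plus strand) measured 8.35, 8.80, 7.92, 8.49 and 9.61 log2 CPM in KP 1 to 5 and 8.34, 9.06, 9.32, 9.33 and 8.87 log2 CPM in KPG1 1 to 5. KP 5 held the highest level of all tumors, the reverse of its place for Dusp4, and the groups overlapped. The log2 fold change was 0.35 ± 0.30 (SE; 95% interval -0.30 to 1.00) with a limma adjusted p of 0.679, and it was 0.16 without KP 3 and 0.58 without KP 5. Spred2 (chromosome 11, 19924375 to 20024026, plus strand) measured 5.91, 6.31, 6.09, 5.95 and 6.82 log2 CPM in KP and 6.37, 6.50, 6.25, 6.25 and 6.26 in KPG1, again with KP 5 highest. Its log2 fold change was 0.11 ± 0.17 (SE; 95% interval -0.26 to 0.48) with a limma adjusted p of 0.839, and both genes turned sign with the sample number as a covariate.

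Neither of the ETS factor genes passed the test. Etv5 (chromosome 16, 22381309 to 22439719, minus strand) measured 6.39, 7.94, 7.54, 7.05 and 8.06 log2 CPM in KP 1 to 5 and 8.06, 8.23, 7.92, 7.81 and 7.81 log2 CPM in KPG1 1 to 5. The KPG1 tumors were tightly grouped (SD 0.18) and KP tumors were not (SD 0.69), with KP 1 and KP 4 the lowest. The log2 fold change was 0.57 ± 0.28 (SE; 95% interval -0.05 to 1.19), or 1.48-fold, with a limma adjusted p of 0.469. KP 1 and KP 4 were also the libraries with the lowest summed alveolar type 2 markers, 18945 and 28435 CPM against at least 48980 CPM in the other 8 libraries, and the part of this in the Etv5 values was not tested. Without KP 1 the log2 fold change of Etv5 was 0.32. Etv4 (chromosome 11, 101769742 to 101785371, minus strand) ran from 5.15 to 6.27 log2 CPM in KP and from 5.34 to 5.75 in KPG1, with a log2 fold change of -0.04 ± 0.19 (SE; 95% interval -0.47 to 0.38) and a limma adjusted p of 0.949.

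**Figure D3:**
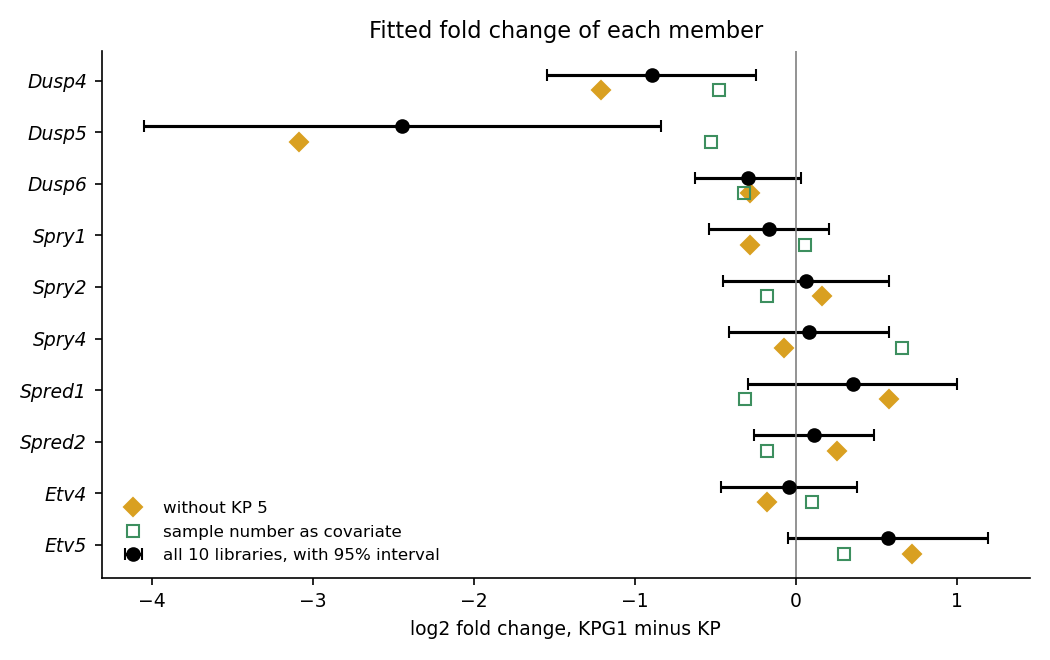
Fitted log2 fold change of each gene, KPG1 minus KP (horizontal axis), from all 10 libraries with its 95% interval (black), without KP 5 (yellow diamonds) and with the sample number as a covariate (open green squares). The intervals of Dusp4 and Dusp5 lie below 0, and with the covariate the values move to -0.48 and -0.53.

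Levels of different genes can be compared only per length, here on the RPKM scale (CPM divided by the exon length in kilobases). The order of the member means changed between the groups. Dusp5 moved farthest, from rank 1 in KP to 6 in KPG1. Etv5 went from 7 to 4, Dusp4 from 5 to 7 and Spred1 from 4 to 2. In KP, Dusp5 (148 ± 75.3, SD, n = 5) and Dusp6 (146 ± 15.7) had the highest means and overlapped each other. Dusp6 did not overlap the next gene, Spry1 (71.3 ± 15.6), which was followed by Spred1, Dusp4, Spry2 and Etv5 (63.6, 57.1, 48.9 and 44.6 RPKM). Etv4, Spred2 and Spry4 had the lowest means (16.6, 16.5 and 10.7 RPKM). In KPG1, Dusp6 led with 120 ± 23.6 RPKM without overlap with Spred1, the next gene at 76.8 ± 19.5, and Dusp5 stood at 29.3 ± 25.6, the sixth of 10. Dusp4 (27.9 ± 2.04) did not overlap the next lower gene in KPG1, Spred2 (17.4 ± 1.37), while all other neighbours in the order overlapped. Spry4 had the lowest mean in both groups.

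The members did not rise and fall as 1 block across the tumors. Over the 10 libraries, none of the 45 pairs had a Pearson r that passed an adjusted permutation p of 0.05, and 12 had an unadjusted p under 0.05. Dusp4 and Dusp5 were positively related (r 0.843, permutation p 0.00451, adjusted 0.0723, rho 0.709, permutation p 0.027, adjusted 0.135), and without KP 1 and KP 3 r was 0.814. With the group means removed r was 0.696. Within KP the genes shared their lowest library, KP 5, and their highest, KP 1, whereas within KPG1 Dusp4 spanned only 6.09 to 6.37 log2 CPM while Dusp5 spanned 4.45 to 7.35. Dusp4 ran opposite to Etv5 (r -0.835, permutation p 0.00328, adjusted 0.0723, rho -0.721, permutation p 0.0234, adjusted 0.132), with r of -0.638 without KP 1 and KP 3. Within the 5 KP libraries r was -0.80 and within the 5 KPG1 libraries 0.157, with too few libraries in each for a test.

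Spred2 and Etv5 were the only pair to pass the adjusted threshold by rank (rho 0.952, permutation p 9e-05, adjusted 0.00405), with Pearson's r at 0.797 (permutation p 0.00615, adjusted 0.0723). Without KP 1 and KP 5, r was 0.976, and with group means removed it was 0.823. The largest absolute r of Dusp6 was 0.49, with Spry2. The libraries share depth scaling and the mixture of cells, and the pairs are not independent of each other.

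**Figure D4:**
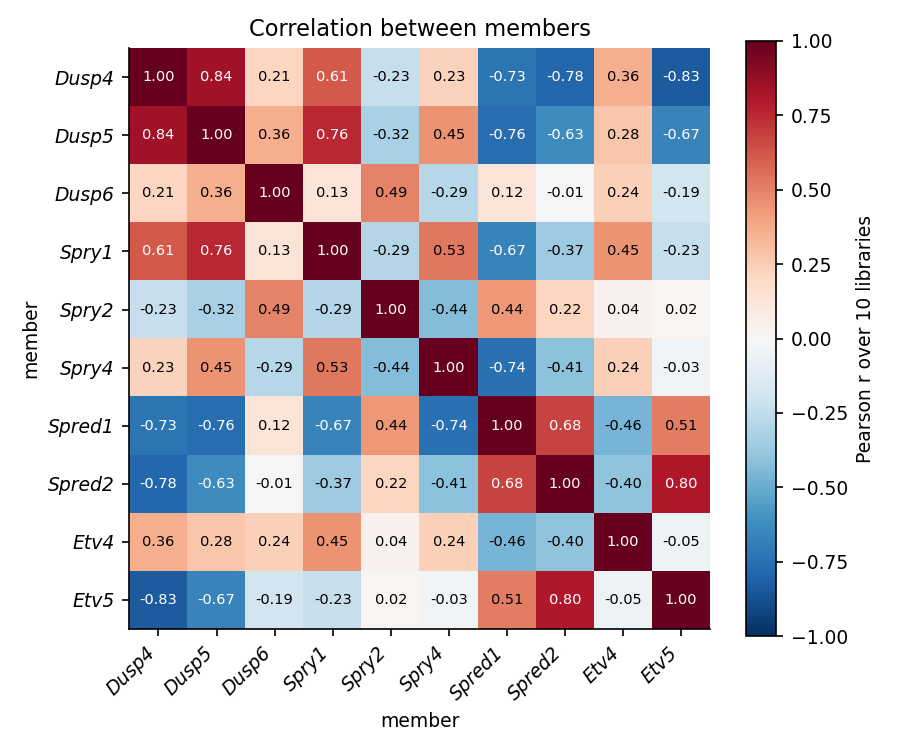
Pearson's r between the log2 CPM of the 10 genes (rows and columns) over the 10 libraries, blue for negative and red for positive. Dusp4 and Dusp5 (0.84) share positive values with Spry1 and negative ones with Spred1, Spred2 and Etv5, while Dusp6 stays between -0.29 and 0.49 with every other gene.

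Among 12867 genes with a mean of at least 1 log2 CPM, the pattern most like that of Dusp6 over the 10 libraries was that of Pdcd6ip (r 0.896), followed by Mical1 (0.870), Ptges3l (0.864), Als2cl (0.858) and Sec22c (0.856). The mean z-score of the 10 members ran from -0.39 in KPG1 2 to 0.59 in KP 2. Since some members ran opposite to others, it stands for no pattern shared by all of them. This mean was most closely matched by Baiap2 (r 0.951), and C2cd2l (0.881), Pml (0.870) and Rfx2 (0.859) were also among the 5 highest. These are the highest of many values and describe likeness only.

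The other genes of the pathway were set beside the members in 6 lists. These lists were chosen with earlier results of these data known. Their counts and medians below describe the data and are not independent evidence. Of 93 tested genes in them, 3 passed the threshold (3.23%, beside 0.173% of all genes), and all 3 were among the other ERK-induced genes and lower in KPG1. In that list of 20 genes, 18 had a fitted value below 0, beside 47.3% of all genes tested. Of these 18, 15 had an unadjusted p under 0.05 in limma, beside 1024 of all 16216 genes that were lower at that p. In the list 9 genes did not overlap between the groups, all lower in KPG1, beside 286 of all 16216 genes. The list median was -0.96 on the log2 scale, against 0.01 for the members and 0.02 for all genes tested. The summed level of these genes ran from 5753 to 7348 CPM in KP and from 3173 to 3888 CPM in KPG1 without overlap. The summed epithelial markers, also without overlap, differed in the same direction through the keratins and Cldn4 (7.92 log2 CPM on average in KP and 6.39 in KPG1), while Epcam was at 8.72 and 8.77 and Cdh1 at 10.01 and 9.91, and all 9 alveolar type 2 markers had fitted values above 0. The part of these markers in the result was not tested.

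Maff, a small Maf transcription factor gene, measured 6.98, 6.72, 6.74, 6.93 and 6.37 log2 CPM in KP 1 to 5 and 5.61, 5.42, 5.14, 5.46 and 5.90 log2 CPM in KPG1 1 to 5. Ier3, an immediate-early gene, measured 7.40, 7.19, 7.62, 7.38 and 7.14 log2 CPM in KP and 6.70, 6.28, 6.19, 6.02 and 6.19 in KPG1. Areg, the EGF receptor ligand amphiregulin, measured 8.11, 8.26, 8.22, 8.49 and 8.18 log2 CPM in KP and 7.38, 7.08, 7.45, 7.65 and 7.47 in KPG1. In all 3 genes every KPG1 tumor was below every KP tumor, and KP 5 stood with the other KP tumors or nearest to the KPG1 ones without reaching them. The fitted log2 fold changes were -1.24 ± 0.16 for Maff, -1.07 ± 0.15 for Ier3 and -0.84 ± 0.13 for Areg (SE), with limma adjusted p-values of 0.0233, 0.0240 and 0.0314. With the sample number as a covariate they were -0.95, -0.86 and -0.69 with adjusted p-values of 0.243, 0.247 and 0.299, and leaving out single libraries gave adjusted p-values of up to 0.085, 0.085 and 0.105. Over all 21 alternatives the adjusted p ran from 1.13e-08 to 0.243 for Maff, from 1.76e-07 to 0.247 for Ier3 and from 4.88e-07 to 0.299 for Areg, the smallest in DESeq2.

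Of the 7 other MAP kinase phosphatase genes, all had a fitted value below 0, beside 47.3% of all genes tested. None passed the threshold in limma, beside 0.173% of all genes, and 3 did in DESeq2, beside 548 of 16216 genes. These 3 were Dusp1, Dusp8 and Dusp10. The same 3 had an unadjusted p under 0.05 in limma, beside 11.6% of all genes in both directions. Dusp1, the immediate-early nuclear phosphatase, measured 9.34, 9.84, 9.46, 9.77 and 9.29 log2 CPM in KP and 8.91, 8.01, 8.09, 7.76 and 8.60 in KPG1, without overlap. Its log2 fold change was -1.27 ± 0.22 (SE) with a limma adjusted p of 0.0513. Dusp10 and Dusp8, which act mainly on JNK and p38, had log2 fold changes of -1.31 ± 0.33 and -1.34 ± 0.43 (SE) with limma adjusted p-values of 0.179 and 0.264. Dusp10 was also without overlap, at 4.07 to 5.65 log2 CPM in KP and 2.72 to 3.90 in KPG1. Thus 2 of the 7 genes did not overlap, beside 2.81% of all genes. Dusp8 overlapped, and it measured 3.30 log2 CPM in KP 5 but 4.45 to 5.60 elsewhere in KP. Without KP 5 the adjusted p-values of Dusp1, Dusp10 and Dusp8 were 0.0325, 0.0474 and 0.0305, and over the alternatives they ran from 0.000111 to 0.371, from 0.00243 to 0.439 and from 0.00768 to 0.648.

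The remaining lists had medians closer to 0. None of the 24 genes of the RAS and ERK cascade core passed the threshold in limma or DESeq2 (3 higher and 3 lower at an unadjusted p under 0.05 in limma), the list median was -0.06, and the smallest p-values belonged to Ksr1 (-0.43 ± 0.17, SE), Rps6ka3 (0.39 ± 0.16) and Sos1 (0.49 ± 0.22) on the log2 scale. None of the 22 tested receptors and ligands passed in limma (median 0.12, 1 higher and 1 lower at an unadjusted p under 0.05), with Tgfa at -0.37 ± 0.15, Met at 0.43 ± 0.18 and Egfr at -1.47 ± 0.68 on the log2 scale. Egfr ranged from 0.16 to 4.16 log2 CPM in KP and from 0.85 to 1.12 in KPG1, so that its difference rested on KP 1, KP 3 and KP 4. DESeq2 called Egfr (-2.03 on the log2 scale, adjusted p 0.0145), beside 548 of 16216 genes. Over the alternatives its log2 fold change ran from -2.03 to -0.72 with adjusted p-values of 0.0145 to 0.838. None of the 18 other brakes passed in limma or DESeq2 (1 lower at an unadjusted p under 0.05 in limma). Of the 18, 16 were below 0 (median -0.10), beside 47.3% of all genes tested. The summed level of the brakes did not overlap, at 1730 to 2157 CPM in KP and 1500 to 1685 CPM in KPG1. That sum is weighted to Errfi1, the most abundant gene of the list, at 9.29 to 9.98 log2 CPM in KP and 8.66 to 9.45 in KPG1. The groups overlapped in Errfi1 and in every other gene of the list, so the sum does not show that the brakes differ as a set. In this list the smallest p-values were those of Errfi1, a feedback inhibitor of the EGF receptor (-0.60 ± 0.18, SE), Cbl (-0.16 ± 0.12) and Il17rd (-0.30 ± 0.24) on the log2 scale. Of the other family members, Etv1 was at 0.56 ± 0.33 and Spred3 at -0.33 ± 0.29 on the log2 scale, neither past the threshold in limma or DESeq2 or at an unadjusted p under 0.05 in limma. Etv1 was at 0.24 without KP 4 and Spred3 at -0.06 without KP 5, and Spry3 had no count in any library.

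**Figure D5:**
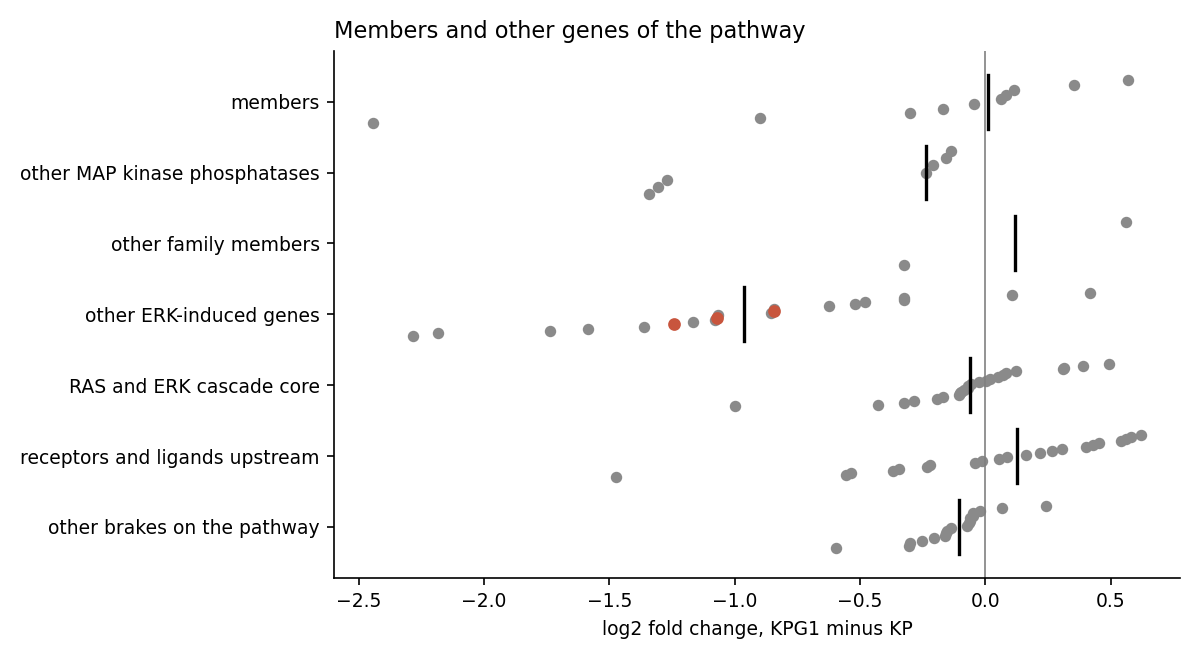
Fitted log2 fold change, KPG1 minus KP (horizontal axis), of the 10 members and of the tested genes in the 6 other lists (rows), 1 point per gene, red for an adjusted p under 0.05 and a black bar for the list median. The other ERK-induced genes have a median of -0.96 and hold the 3 red points, whereas the members' median is 0.01.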

How the data were processed

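The authors sequenced stranded mRNA libraries as single-end reads, trimmed them with Cutadapt (1.9.1 in the methods, 1.4.2 in the submitters' processing notes), aligned them to mm10 with HISAT2 and counted with featureCounts 1.4.4. The deposited counts are whole reads per gene, not normalized. The deposited log2 values are TMM-scaled voom values by the authors and served as an alternative only. Here genes were kept by filterByExpr (edgeR 4.0.16), scaled by TMM and fitted with voom and limma 3.58.1 in R 4.3.3, with Benjamini-Hochberg adjustment over 16216 genes and a threshold of 0.05. The fit was tested on simulated counts. Log2 CPM used a prior count of 2, and RPKM the exon-union length of GENCODE M21. Correlations used 100000 two-sided permutations. Named genes were the members, Slc2a1, in each pathway list the genes past the threshold or otherwise the 3 of smallest p, and 5 genes most like Dusp6 and the member score; Srf, Ptprc and the overlapping genes were added to describe single results. Members and lists were chosen with earlier results of these data known. The labels do not say whether replicates are separate mice, so p-values measure the spread between these samples. Alternatives were edgeR's quasi-likelihood test, DESeq2 1.42.0, other scaling factors, filters of mean CPM or TPM of at least 20 or none, the deposited log2 values, library weights, sample number, replicate block and leaving out each library. The engineered alleles that start the tumors and 1 gene named by likeness are not reported here.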

Additional observations from a re-analysis of the deposited data

Results flagged for a closer look

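Of 56 groups of 5 libraries examined for a library far from the rest, 2 were past Dixon's critical value of 0.71, where chance gives about 2.8. The Dusp5 level of KP 5, 5.61 log2 CPM, was separated from the 8.49 to 9.04 of KP 1 to 4 by 0.840 of the whole range. For Spred3, a family member outside the 10 genes, KP 5 measured 5.88 log2 CPM and KP 1 to 4 between 4.30 and 4.65, a separation of 0.778 of the whole range. Both values belong to KP 5, which was low for the ERK phosphatase gene and high for the Spred gene.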

How the results depend on the processing

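The comparison called 28 of 16216 genes, and of the same 16216 it called 548 in DESeq2 and 228 with library weights. It called 43 genes without a filter, 8 with the sample number as a covariate and 4 to 294 with single libraries left out. The 294 came without KP 5, while 4 to 9 genes were called without any other library except KP 2 (37, of which 20 were among the 28). Members called were 0, but 2 (Dusp4 and Dusp5) in DESeq2, with library weights and without KP 5, so 0 to 2 over the left-out libraries. Calls in the other lists were 3, and 19 in DESeq2, 13 with library weights, 5 with a mean CPM or a mean TPM of at least 20 or without a filter, 0 with the sample number, and 0 to 18 with single libraries left out (18 without KP 5, 0 without KP 1, KP 3, KP 4, KPG1 2, KPG1 3 or KPG1 4). The members' median log2 fold change of 0.01 moved to -0.15 with library weights and -0.18 with the sample number, and ran from -0.13 (without KP 5) to 0.069 over the left-out libraries. Pairs with a significant Pearson r were 0, and 0 to 1 with single libraries left out.

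With the sample number as a covariate, the log2 fold change turned to 0.055 in Spry1, -0.18 in Spry2, -0.32 in Spred1, -0.18 in Spred2, 0.10 in Etv4 and -0.21 in Etv1, library weights turned Spry4 to -0.17, and the covariate moved Spry4 from 0.08 to 0.66. Left-out libraries gave -0.10 to 0.20 for Spry2, -0.11 to 0.17 for Spry4 and -0.18 to 0.11 for Etv4. Dusp4, Dusp5, Dusp6 and Etv5 kept their direction under all 21 alternatives. Replicate numbers are shared between the groups, but deviations of same-numbered samples correlated at -0.161 to 0.076, and 1 number of 5 was its own best match. With a replicate block 5 genes, 0 members and 0 genes of the other lists were called. The cause of these shifts was not tested.

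With 5 libraries a group, the 95% intervals of the members reached from 0.33 (Dusp6) to 1.61 (Dusp5) log2 units to either side of the fitted value. The members held at least 963 counts per library, so the spread between libraries and not the depth sets this limit.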

Other observations

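Srf, the gene of serum response factor, belongs to the cascade core list and was singled out after its values had been seen. It measured 7.47, 7.28, 7.04, 6.70 and 4.93 log2 CPM in KP 1 to 5 and 6.30, 5.15, 5.45, 5.31 and 6.21 log2 CPM in KPG1 1 to 5, with KP 5 the lowest tumor and KPG1 1 and KPG1 5 the highest of their group, the same tumors that were highest for Dusp5. Pearson's r between Srf and Dusp5 over the 10 libraries was 0.940 (permutation p 0.00054) and rho was 0.867 (permutation p 0.00216), in a single relation chosen from these data. Without KP 1 and KP 5 r was 0.960, and with group means removed it was 0.926. Another 50 of the genes tested had a higher r with Dusp5. Like Dusp5, Srf was lower at the low sample numbers. Ordered from number 1 to 16 it read 5.15, 5.45, 5.31, 4.93, 6.21, 6.30, 7.47, 7.28, 7.04 and 6.70 log2 CPM. The part of the sample number in the relation of Srf and Dusp5 was not tested. The log2 fold change of Srf was -0.998 ± 0.44 (SE, n = 5 per group) with a limma adjusted p of 0.419, and -1.45 with an adjusted p of 0.0333 without KP 5. Srf was also called with library weights, and in no other alternative.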
